A study of Homo sapiens with 14 samples.

Results

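CISH, the 7 SOCS genes and PIM1 are feedback and survival genes of cytokine signalling, and 8 of these 9 genes had at least 1 interval in STAT5 and BCL6 ChIP-seq lists from the colorectal adenocarcinoma line DLD-1. The genes were chosen by name, through the gene symbol that the authors gave each interval, and they held 37 of the 152412 distinct intervals in the 4 separate lists. The ninth gene, SOCS7, lacked a symbol in the files and was found by its description. Of all protein-coding genes, 14.3% had an interval in none of these lists, so 8 of 9 is near the background. Control cells received empty vector, and no treatment time is given for them. Activated cells received the plasmid pEGFP-C1199Tiam1, which carries a TIAM1 fragment meant to switch on RAC1/PAK1 signalling, and vehicle for 16 h. Inhibited cells received the same plasmid and 20 microM EHT 1864, a RAC inhibitor, for 16 h. ChIP followed 20 h after transfection in every group, with rabbit polyclonal antibodies to STAT5 (C-17) or BCL6 (N-3). All groups were transfected with Lipofectamine, at passage 10 to 14, and how many cells took up plasmid is unknown here. Of 14 libraries, the 9 analysed here were 2 of control STAT5, 2 of control BCL6, 2 of activator STAT5 and 3 of inhibitor BCL6. The labels do not say whether replicate libraries came from separate cultures. The other 5 libraries (activator BCL6 and inhibitor STAT5) were not analysed here.

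STAT5 is a transcription factor that cytokine and hormone receptors switch on through JAK kinases, and BCL6 is a repressor that recognises similar DNA sequences. CISH and the SOCS proteins form a negative feedback loop: the genes of the best known members, CISH and SOCS1 to SOCS3, are induced by STATs, and the proteins bind receptors or JAKs and damp the signal. They share an SH2 domain and a SOCS box, which recruits a ubiquitin ligase. PIM1 is a serine/threonine kinase that supports cell survival and is also induced through STAT5.

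CISH, the founding member of the family, is described first because its promoter shows the sequence that both factors recognise. The RefSeq promoter window (GRCh38.p14, chr3:50611725-50612024, minus strand, 250 bases before to 50 after the start) is given 5′ to 3′, and capitals mark each match to TTCNNNGAA, the core shared by STAT5 and BCL6 sites, which reads the same on both strands.
CISH promoter: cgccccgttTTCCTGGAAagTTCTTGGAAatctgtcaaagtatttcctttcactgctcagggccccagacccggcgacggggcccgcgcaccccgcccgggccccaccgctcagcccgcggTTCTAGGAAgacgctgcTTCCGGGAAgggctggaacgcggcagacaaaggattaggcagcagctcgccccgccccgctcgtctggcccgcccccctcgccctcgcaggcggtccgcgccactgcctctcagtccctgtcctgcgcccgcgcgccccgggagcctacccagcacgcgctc
It held 4 matches, whose first bases were at -241, -230, -129 and -112 from the start. Of 35116 promoter windows of this length, 7.66% held at least 1 match and 7 windows (0.0199%) held 4 or more. The matches at -241 and -112 also fit TTCCNGGAA, a palindromic form of the core found in 1.15% of windows. The match at -129 is TTCCTAGAA on the other strand, a BCL6 form of the core found in 0.373% of windows. The reference table held promoter windows for 6 of the 9 genes, and CISH was the 1 of these 6 with a match to any of these letters. SOCS1, SOCS3, SOCS4, SOCS6 and PIM1 had none in their windows, and SOCS2, SOCS5 and SOCS7 were not in the table. A match is a description of letters, not of binding.

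In control cells an interval lay over the start of CISH in the BCL6 list and not in the STAT5 list. This control BCL6 interval (chromosome 3, 50649232 to 50649507, GRCh37) reached from -245 to 30 bp of the Ensembl start, with a value of 0 in the first library and 2 in the second. The starts of the 2 annotations, on different builds, were not compared. It was the 1 of 35 control intervals at these genes that spanned a gene start, and in it a single library had the lowest value listed. The share of all control intervals that span a gene start is not given here, so nothing is read from this count. All values are whole numbers of 0 or at least 2, read here as counts of reads.

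At CISH the control BCL6 list held 4 further intervals upstream, so that BCL6 had 5 in all. The widest of them (50649834 to 50650449, 616 bp) had 2 in both libraries. The others had 0 and 2 (50650748 to 50651046), 2 and 0 (50651257 to 50651581) and 0 and 3 (50652239 to 50652549). Of the protein-coding genes, 1.63% had 5 or more control BCL6 intervals. The control STAT5 list held 2, with values of 0 and 2 at 50649611 to 50649890 and of 2 and 0 at 50650579 to 50650898, and each overlapped a BCL6 interval (by 57 bp and 151 bp). The BCL6 interval over the start, the 616 bp one and the STAT5 interval nearer to the start are listed for the neighbouring gene MAPKAPK3 as well. Summed over the window, CISH had 4 and 9 for BCL6 and 2 and 2 for STAT5. The antibodies are set side by side without a test, since library depth is unknown here and 2 libraries against 2 cannot reach an exact two-sided permutation p below 0.333.

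Across the family, 8 of 9 genes had a control STAT5 interval and 8 of 9 a control BCL6 interval, against 74.9% and 73.9% of all 20052 protein-coding genes. These shares are near the background, and 30 of the 35 control intervals had a value in 1 library alone. The control lists admit intervals seen in any 1 library, whereas the treated lists admit only those with at least 2 in every library. Under that stricter rule the control STAT5 list held SOCS3 and SOCS5 (2 of 9 genes, background 13.8%). The control BCL6 list held CISH and SOCS3 (2 of 9, background 12.3%). By symbol, SOCS3 alone passed it with both antibodies, which 2.59% of protein-coding genes did, and SOCS7, found by its description, passed it with both as well. After activation 1 of 9 genes, SOCS5, had a STAT5 interval, against 26.1% of protein-coding genes. With the inhibitor 0 of 9 had a BCL6 interval, against 3.30%. With so low a background nothing is read from that 0. The treated lists also leave out every base of the control intervals of the same antibody, so these counts do not measure a loss of binding.

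**Figure D1:**
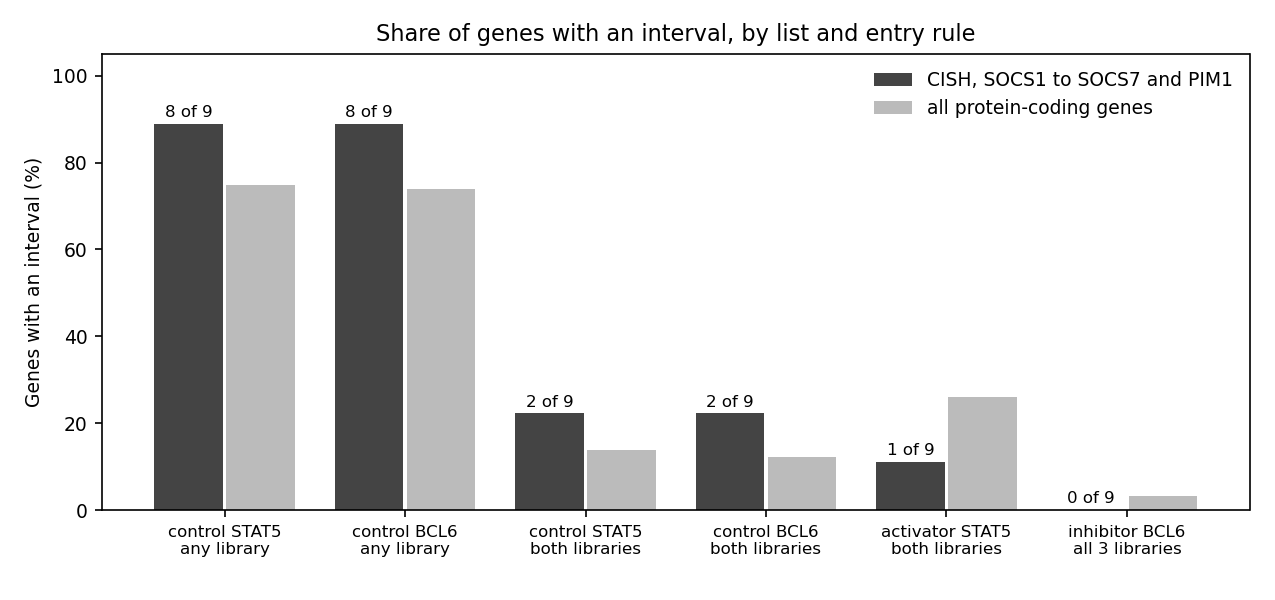
Bars give the percent of the 9 genes (dark, with the count above) and of all protein-coding genes (light) that had an interval, for each list and entry rule. The 9 genes stand at 8 of 9 in both control lists, at 2 of 9 when a value in both control libraries is required, at 1 of 9 for activator STAT5 and at 0 of 9 for inhibitor BCL6.

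SOCS7, which lacked a symbol in the files, was missed by the symbol and found by its description (ENSG00000174111, start at chromosome 17, 36508006), a match made after seeing the data. It had 3 control STAT5 intervals, with values of 2 and 2 (36505372 to 36505804), 0 and 2 (36505896 to 36506203) and 2 and 0 (36506295 to 36506590). Its 3 control BCL6 intervals had 0 and 2 (36505735 to 36505997), 3 and 2 (36507079 to 36507555) and 2 and 0 (36508466 to 36508755). With it, all 9 genes were in both control lists, and 3 of 9 had an interval with a value in both libraries for each antibody. It had no treated interval. Other genes without a symbol are missing from the background too, which is therefore somewhat low.

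**Figure D2:**
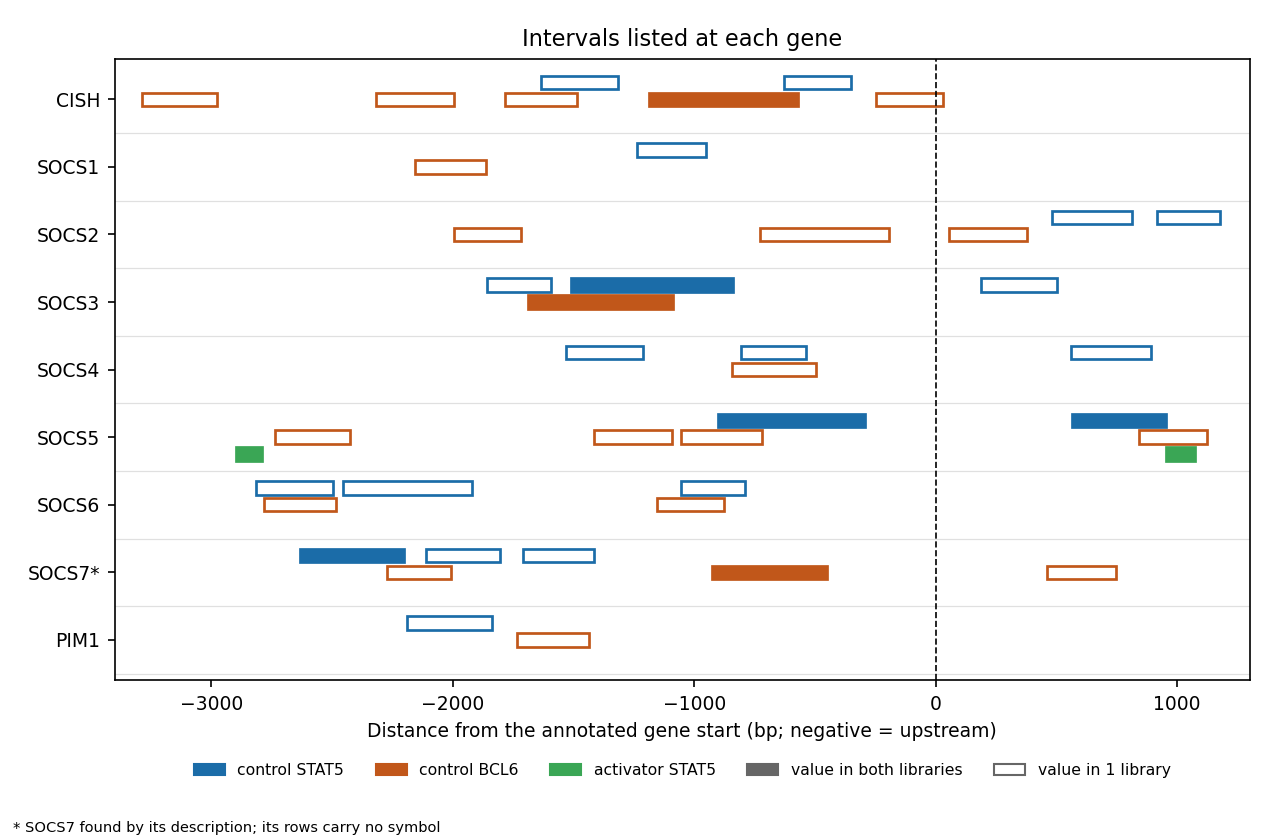
Each box is 1 interval, placed by its distance in bp from the annotated gene start; colours mark the list, filled boxes had a value in both libraries and open boxes in 1. Most control boxes are open and lie upstream, and the 2 activator STAT5 boxes are at SOCS5.

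Intervals lay mainly upstream. At the 8 genes with a symbol, 12 of 17 control STAT5 intervals and 15 of 18 control BCL6 intervals lay wholly upstream of the start. Over all rows of these lists, which cover 3000 bp upstream and 1000 bp downstream, the shares were 71.6% and 72.4%. The placement is thus near that of any gene in the lists. The 5 intervals with a value in both libraries were 389 to 670 bp (STAT5) and 602 to 616 bp (BCL6) wide. Those with a value in 1 library were 263 to 537 bp and 276 to 533 bp wide. Over all control intervals the median width was 475 bp (STAT5) and 470 bp (BCL6) with a value in both libraries. With a value in 1 library it was 300 bp for each antibody, so the difference is general to the lists. A value in both libraries was found at 3 of 17 STAT5 and 2 of 18 BCL6 intervals of these genes, against 9.34% and 9.19% of all control intervals.

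SOCS3, which codes for an inhibitor of JAKs and of IL-6 family receptors, had overlapping intervals of the 2 antibodies. The control STAT5 interval at chromosome 17, 76356998 to 76357667, had values of 2 and 2. The control BCL6 interval at 76357245 to 76357846 had 2 and 3. The pair shared 423 bp, with the ends nearer to the gene at -840 and -1087 bp from the start. All 4 control libraries therefore had a value at the interval of their antibody. A value belongs to a whole interval, so it is not known to lie in the shared 423 bp. A further STAT5 interval (76357752 to 76358018, 3 and 0) shared 95 bp with the same BCL6 interval, and another lay inside the gene (76355654 to 76355969, 0 and 2).

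SOCS5 codes for a family member with a long N-terminal region that has been linked to EGF receptor turnover, and it had the highest summed control STAT5 value of the 9 genes. Its intervals at chromosome 2, 46925192 to 46925798 and 46926657 to 46927045, had values of 2 and 6 and of 2 and 4. Both control STAT5 libraries had values at both, with the second library higher. Control BCL6 had 4 intervals here, with 2 and 0 (46923356 to 46923668), 3 and 0 (46924676 to 46924999), 4 and 0 (46925039 to 46925372) and 0 and 4 (46926936 to 46927218). No BCL6 interval at SOCS5 had a value in both libraries. Each of the 2 STAT5 intervals overlapped 1 of them, by 181 bp and 110 bp.

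After activation SOCS5 had 2 STAT5 intervals. The one downstream of the start (46927046 to 46927165, 120 bp) had values of 2 and 9, and the far upstream one (46923194 to 46923301, 108 bp) had 2 and 2. The activator libraries differed by 7 at the first of these and not at all at the other. In the second library 1.59% of all activator STAT5 intervals reached 9 or more, and 35.3% of all had 2 in both libraries. A narrow interval in a treated list can carry the value of a wider peak. The 9 is thus not known to lie in these 120 bp. The downstream interval lay wholly within the control BCL6 interval with 0 and 4, and the shared list of the authors gives it the same values. It began at the base after the control STAT5 interval ended, so it adjoins STAT5 signal already present with the empty vector. Such direct contact was found at 18.9% of activator STAT5 intervals, and an overlap with a control BCL6 interval at 25.6%. The upstream interval was 54 bp from the nearest control BCL6 interval and 1890 bp from the nearest control STAT5 interval. Whether STAT5 was gained at either cannot be told from lists built without the control bases.

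**Figure D3:**
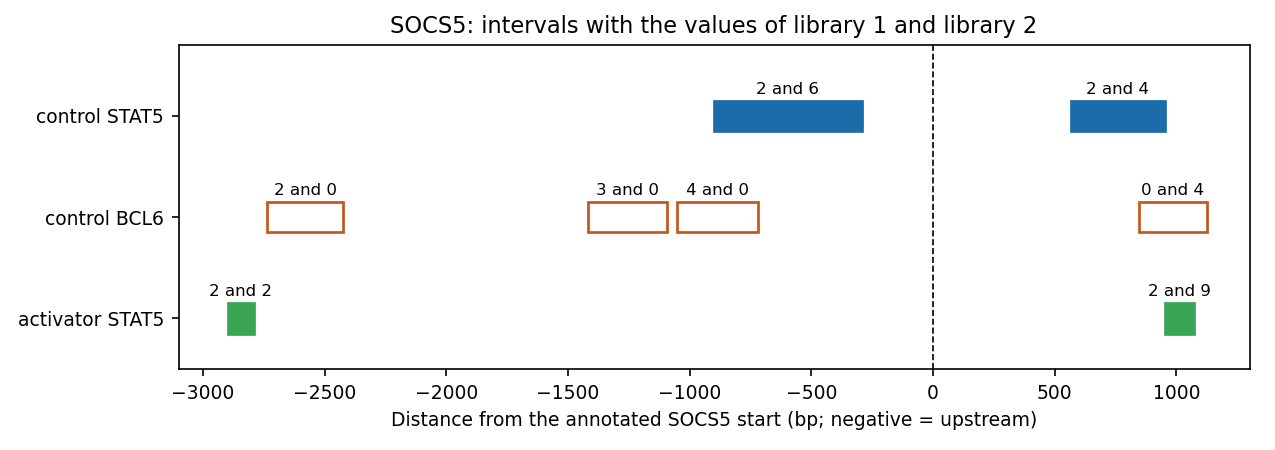
Boxes are the SOCS5 intervals of 3 lists by distance in bp from the gene start, with the values of the first and second library above each; filled boxes had a value in both libraries. The activator STAT5 box with 2 and 9 lies inside a control BCL6 box (0 and 4) and directly beside a control STAT5 box (2 and 4).

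SOCS5 lies on chromosome 2 between 30 and 75 Mb, a stretch known from earlier results to be dense in all lists. Of 233 protein-coding genes of the lists there, 140 (60.1%) had an activator STAT5 interval, against 5089 of 16959 elsewhere. For control STAT5 the shares were 96.6% and 87.3%, and for control BCL6 95.7% and 86.0%. The part of this density in the SOCS5 result was not tested.

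Within the window listed for them, SOCS2 and SOCS1 had intervals of the 2 antibodies at separate places. SOCS2 codes for the regulator of growth hormone signalling. It had control BCL6 values of 2 and 0 (chromosome 12, 93961604 to 93961882), 5 and 0 (93962872 to 93963404) and 0 and 2 (93963656 to 93963978). Its control STAT5 intervals (93964080 to 93964412 and 93964515 to 93964777), both inside the gene, each had 2 and 0. No STAT5 interval listed for SOCS2 overlapped a BCL6 interval, and the closest were 101 bp apart. Further inside the gene, under SOCS2-AS1, a control STAT5 interval with 2 and 2 (93966158 to 93966820) held a whole control BCL6 interval with 0 and 2 (93966343 to 93966650, 308 bp). SOCS1 codes for a strong JAK inhibitor induced by interferons. It had 1 interval for each antibody, both with 0 and 2: STAT5 at chromosome 16, 11350989 to 11351271, and BCL6 at 11351900 to 11352194. Both are listed for an Ensembl gene without a symbol too.

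SOCS4 and SOCS6, like SOCS5, are less studied members of the family, and SOCS6 has been linked to KIT signalling. SOCS4 had control STAT5 values of 2 and 0 (chromosome 14, 55492315 to 55492635), 2 and 0 (55493037 to 55493308) and 0 and 3 (55494407 to 55494738). Its 1 control BCL6 interval, with 3 and 0 (55493001 to 55493351), held the second of these whole (272 bp). That pair and the third STAT5 interval are listed for WDHD1 as well, whose start lies close by on the other strand. SOCS6 had control STAT5 values of 0 and 3 (chromosome 18, 67953354 to 67953673), 5 and 0 (67953714 to 67954250) and 0 and 2 (67955114 to 67955380). Its control BCL6 intervals had 0 and 2 (67953387 to 67953684) and 2 and 0 (67955017 to 67955294). They shared 287 bp and 181 bp with STAT5 intervals, and none of the 5 SOCS6 intervals had a value in both libraries.

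PIM1 had 1 upstream interval for each antibody, each with a value in 1 library. Control STAT5 had 5 and 0 at chromosome 6, 37135735 to 37136084, and control BCL6 had 0 and 3 at 37136191 to 37136489, 106 bp away. Of the remaining PIM kinase genes, PIM3 had a control STAT5 interval with 2 and 2 (chromosome 22, 50353440 to 50353995) and a control BCL6 interval with 0 and 2. PIM2 had a control BCL6 interval with 0 and 3. None of the 3 PIM genes had a treated interval.

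Counted over the 8 genes with a symbol, 9 of 17 control STAT5 intervals overlapped a control BCL6 interval by at least 1 bp, against 30.2% of all control STAT5 intervals. In the other direction it was 8 of 18, against 30.1%. They lay at CISH, SOCS3, SOCS4, SOCS5 and SOCS6, 5 of the 8 genes. When the BCL6 interval had to have a value in both libraries, 3 of 17 were left. No share over all genes is given for the 5 of 8, nor over all intervals for the 3 of 17, so neither is read further.

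By summed value over the same window for each gene, the control STAT5 order was SOCS5, SOCS6, SOCS3, SOCS7, SOCS4, PIM1, then CISH and SOCS2, and last SOCS1. Totals of both libraries ran from 14 at SOCS5 to 2 at SOCS1. The control BCL6 order was CISH and SOCS5 at 13, SOCS2 and SOCS7 at 9, SOCS3, SOCS6, then SOCS4 and PIM1, and SOCS1 at 2. Neighbours in both orders overlapped or met in their library values, except SOCS7 (5 and 4) over SOCS3 (2 and 3) in BCL6. SOCS5 had 4 and 10 (7.0 ± 4.24, SD, n = 2) in control STAT5, 9 and 4 (6.5 ± 3.54) in control BCL6 and 4 and 11 (7.5 ± 4.95) in activator STAT5. These means differ by less than the spread between libraries, and the lists have different entry rules. A summed value as high as that of SOCS5 was found at 2.27% of protein-coding genes in control STAT5, 2.59% in control BCL6 and 1.74% in activator STAT5.

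**Figure D4:**
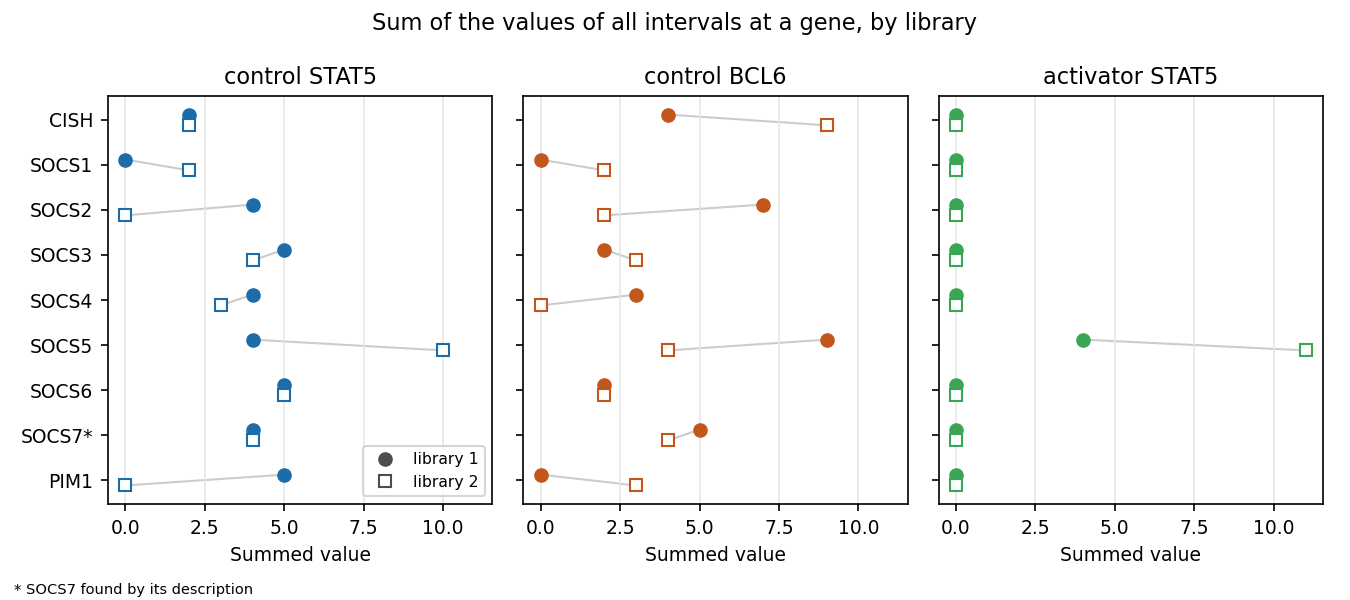
Points give the summed value of all intervals at each gene in the first (filled circle) and second (open square) library, in 1 panel for each list; 0 means that no interval with a value was listed. The libraries of a group often stand apart, as at SOCS5 (4 and 10 in control STAT5) and CISH (4 and 9 in control BCL6).

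An activator STAT5 interval also lay inside CISH, SOCS2 and SOCS3, beyond the 1000 bp downstream that the lists cover for those genes. Each was found after seeing the data, is listed under a neighbouring gene and had 2 and 2. At CISH it lay 2159 to 2333 bp downstream of the start (chromosome 3, 50646929 to 50647103), listed for MAPKAPK3. At SOCS2 it lay 3250 to 3367 bp downstream (chromosome 12, 93966849 to 93966966), listed for the antisense gene SOCS2-AS1, 28 bp from a control STAT5 interval with 2 and 2. At SOCS3 it lay 2400 to 2637 bp downstream (chromosome 17, 76353521 to 76353758), listed for 2 Ensembl genes without a symbol, 166 bp from a control STAT5 interval. From 3000 bp upstream to the gene's end, 4 of 9 genes thus had an activator STAT5 interval, against 41.8% of 17192 protein-coding genes of the lists. Of the 5 genes of at most 6380 bp it was 3, against 32.0% of genes as short. The first is near the background. The second is a larger share, but over 5 genes that were looked at after seeing the data, and a gene body is covered by the lists only where another gene starts in it. SOCS1, SOCS4, SOCS6, SOCS7 and PIM1 had none even so. The highest control values inside any of these genes under a neighbour's name were 4 and 6 in STAT5 at SOCS4 (chromosome 14, 55495094 to 55495807, listed for WDHD1).

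**Figure D5:**
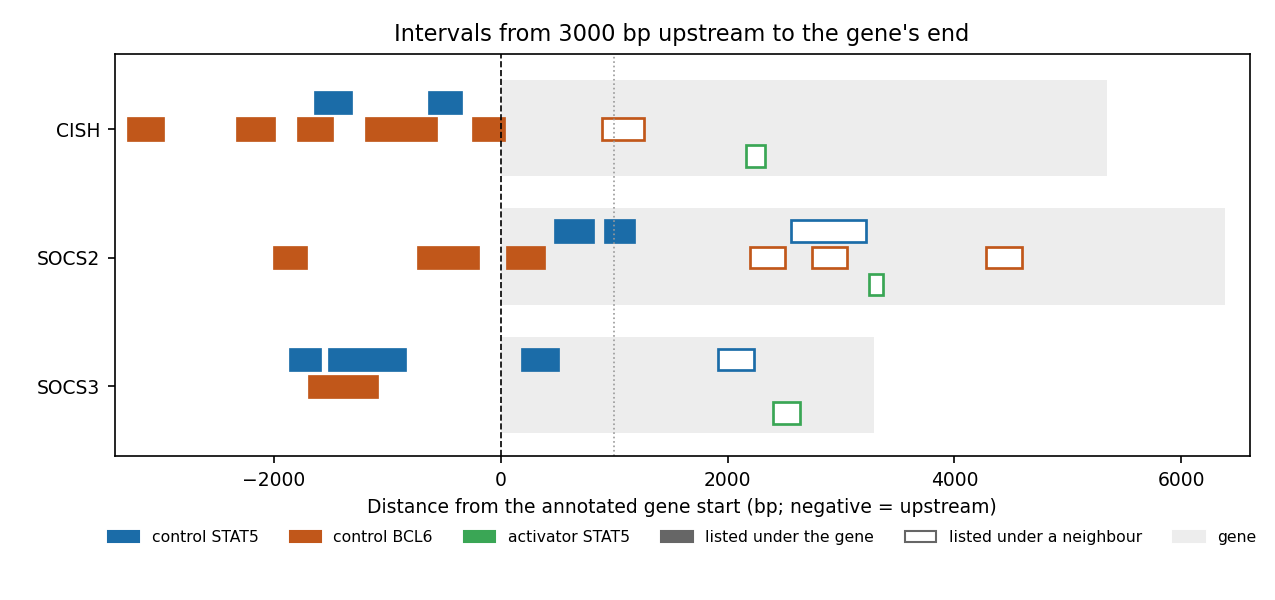
Boxes are intervals at CISH, SOCS2 and SOCS3 by distance in bp from the gene start; the grey block is the gene, the dotted line marks 1000 bp, filled boxes are listed under the gene and open boxes under a neighbour. The 3 activator STAT5 boxes lie between 2159 and 3367 bp downstream.

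The presence pattern of the family was a common one. Of all protein-coding genes, 41.8% shared the pattern of CISH, SOCS1 to SOCS4, SOCS6 and PIM1 (both control lists and no treated list), and 19.2% that of SOCS5. By the sum of absolute differences over the 9 libraries, the gene nearest to SOCS5 was PLA2G2C (a difference of 8), followed by ENDOD1, MMP26 and PRKD3 (10 each).

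Other genes of the pathway were counted from lists of names. Activator STAT5 intervals, with a background of 26.1%, lay at 1 of 13 STAT5-linked cytokine receptors, 4 of 12 other negative regulators and 4 of 16 further STAT5-induced genes. STAT5A, which codes for a form of STAT5 itself, had 3 and 2 (chromosome 17, 40438929 to 40438980). The receptor was IL5RA, with 2 and 2 at 2 places. Among negative regulators, the phosphatase gene PTPN2 had 2 and 6, PIAS4 had 2 and 4, the ubiquitin ligase gene CBL had 3 and 3, and PTPRC had 3 and 3 and 3 and 2. The further STAT5-induced genes were BCL6 (5 and 5, and 2 and 3), ID1 (2 and 4), SPRED2 (2 and 2) and IRF1 (2 and 2).

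Of 6 genes listed here as partners of the SOCS box in the ubiquitin ligase, 4 had activator STAT5 intervals. RNF7, the RING protein that works with CUL5, had 2 and 7 (chromosome 3, 141455704 to 141455982). ELOC, the elongin C that binds the SOCS box, had 4 and 2 and 2 and 2, and ELOB and CUL2 had 2 and 2 each. CUL5 itself and RBX1 had none. A list of 6 is too short to set apart from the background of 26.1%.

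With the inhibitor, against 3.30% of all protein-coding genes, BCL6 intervals lay at 2 of 11 JAK and STAT genes and 2 of 12 other negative regulators. The first were JAK1 (5, 2 and 2) and JAK2 (3, 2 and 4), which code for kinases that activate STATs, and the others PTPN1 (2, 2 and 6) and PTPRC (2, 2 and 2). Those at PTPN1 and PTPRC overlapped a control STAT5 interval, by 83 bp and 89 bp, and those at JAK1 and JAK2 did not. The share of all inhibitor BCL6 intervals with such an overlap is not given here, so nothing is read from these overlaps. No inhibitor BCL6 interval lay at the 13 receptors, 6 SOCS box partners or 16 further STAT5-induced genes, from which nothing is read at so low a background. The lists of 11 and 12 genes are likewise too short to set apart from that background.

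Library values were low throughout: over the 4 lists, 53.2% to 74.0% of nonzero entries in each library were 2. Of the 35 control intervals at these genes, 20 had no higher value in either library. The share of all control intervals for which this holds is not given here. Among 14 colon epithelium markers, 12 were in the control STAT5 list (VIL1 and LGALS4 were not), 14 in control BCL6, 8 in activator STAT5 and 0 in inhibitor BCL6. Among 6 lymphocyte markers the numbers were 5, 5, 3 and 2. The 2 in inhibitor BCL6 were PTPRC and CD79A. PTPRC is also 1 of the other negative regulators above, so its treated intervals are counted in both lists. The shares over all protein-coding genes were 74.9%, 73.9%, 26.1% and 3.30%, so that both marker lists had a larger share than the background in activator STAT5, and the lymphocyte list in inhibitor BCL6 too, in lists too short to set apart without a test. An interval near a gene start is not expression, so the lists do not check the identity of the cells.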

How the data were processed

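STAT5 and BCL6 ChIP-seq intervals near gene starts were taken from DLD-1 libraries. The submitters' processing notes name Bowtie 0.12.7, CASAVA 1.8.2 and the build GRCh37. Peak caller, threshold and depth were not given in the sources used here. In the authors' deposited lists each interval has 1 whole number for every library, taken here as a read count although no header names the quantity. In treated lists a narrow interval can carry the value of a wider peak. Lists are named here by the libraries in their columns, since 2 lists with control columns bear the name of a treatment. Intervals near several genes were counted once, overlap meant at least 1 bp, and distances run from the gene start the authors annotated.

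Backgrounds are shares of the 20052 protein-coding RefSeq symbols (GRCh38.p14, used for names and promoter windows only), with older symbols matched. No statistical test was made. All 9 genes are named, with genes of the pathway lists that had a treated interval (at most 10 a list) and the 3 genes nearest to a member with a treated interval, ties included. Members and lists were chosen with earlier results of these data known. Alternatives were the entry rule, the lowest value, the distance, the overlap, each library left out and the gene universe. A result of the pathway lists is not reported here. Overlap counting was tested on simulated intervals. Python 3.11.15 and pandas 2.3.3 were used. Counts cover reads, not independent molecules.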

Additional observations from a re-analysis of the deposited data

How the results depend on the processing

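Of the numbers of genes with an interval, 8 in control STAT5 became 2 with a value of at least 2 in both libraries and 5 with a value of at least 3 in 1 library. The 8 in control BCL6 became 2 with the first of these rules and 4 within 1000 bp of the start. Under that first rule the shares of protein-coding genes were 13.8% (control STAT5) and 12.3% (control BCL6). The 1 in activator STAT5 became 4 when intervals up to the gene's end were taken, a choice made after seeing the data. Of the overlaps, 9 of control STAT5 with control BCL6 became 3 when the BCL6 interval needed a value in both libraries. They were 6 when 50% of the shorter interval had to be shared and 12 with gaps of up to 200 bp. No share over all intervals is given beside these alternative counts. The 1 activator STAT5 overlap became 0 with the first rule and 2 with gaps of up to 200 bp. The 0 of inhibitor BCL6 was 0 under every alternative run. Leaving out a library gave 6 to 7 genes in each control list and 1 in activator STAT5. No share over all protein-coding genes is given for a value of at least 3, for 1000 bp or for a library left out. Those counts are therefore not read as particular to these genes. With 2 libraries a group, leaving out 1 gives the other's summed value, so this is no check of stability: at PIM1 the mean control STAT5 value of 2.50 became 0 or 5.00, and at SOCS1 that of 1.00 became 0 or 2.00. With all 26333 symbols of the lists as the universe, the shares of genes with an interval became 86.4% (control STAT5), 85.6% (control BCL6), 29.1% (activator STAT5) and 3.66% (inhibitor BCL6). No test and no paired analysis was made. The labels number libraries across the whole series and do not state which were paired. Values of 2 and 3 leave little precision at a single interval, and a missing interval does not show that binding was absent.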

Other observations

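2 SOCS2 pseudogenes, found after seeing the data, had an activator STAT5 interval. SOCS2 had none in its window, but had such an interval further inside the gene. Of all symbols of the lists, 29.1% had an activator STAT5 interval, so nothing is read from these 2. SOCS2P1 had values of 2 and 4 (chromosome 20, 31775044 to 31775127) at -154 bp from its start, and lay 197 bp from a control STAT5 interval with 0 and 2. In control cells STAT5 (31775325 to 31775654) and BCL6 (31775336 to 31775659, 3 and 0) shared 319 bp downstream of its start. SOCS2P2 had 2 and 2 (chromosome 22, 22525871 to 22526121), which shared 49 bp with a control BCL6 interval of 0 and 4, and it is in the authors' shared list. Both are copies of SOCS2, and how reads that fit several copies were assigned is unknown here. The part that such reads had in these values was not tested.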
